A study of Mus musculus with 743 samples.

Results

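The DNA replication and S-phase genes are 51 named genes whose products license and fire replication origins, copy DNA, supply nucleotides, protect the replication fork and package the new strands. All 51 were found among the 25700 genes counted in single Schwann cells (SCs) of the mouse sciatic nerve at postnatal day 1 (P1), and all 51 had enough reads to enter the fit over 13292 genes. The mice were P0Cre -/+ : ReYFP Tg/+ : βAct-DsRed Tg/+ on the C57bl/6J background. Cre switches on eYFP in the SC lineage and DsRed is made in every cell, so sorting for eYFP selects cells by past activity of Cre, and no cell without the transgenes was measured. Each of 2 plates held cells of its own pool of 2 mice, 1 male and 1 female, sorted 1 per well and sequenced by the Smart-seq2 protocol. All cells come from 1 age and 1 genotype, so the comparisons are between classes of cells within the same plates. A cell was called cycling when Mki67 and Top2a together reached 50 CPM (reads of the gene scaled to a total of 1000000), promyelinating when it was not cycling and reached 50 CPM of Ncmap, and other in the remaining cases.

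A dividing cell first loads the MCM helicase onto origins, then activates it with CDC45, the GINS complex and MCM10, and copies the genome with primase and the polymerases alpha, delta and epsilon. PCNA is the sliding clamp that holds the polymerases on DNA, and the RFC complex loads it. Many of these genes are transcribed at the transition from G1 to S phase under control of E2F factors, which are held back by the retinoblastoma protein until cyclin D and cyclin E kinases release them. Perinatal SCs divide while they sort axons, and leave the cell cycle when they enter a 1:1 relation with a large axon as promyelinating SCs.

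Because these genes are textbook targets of E2F, their promoters were searched for the E2F motif, written as TTTCCCGC, TTTCGCGC, TTTGCCGC or TTTGGCGC on either strand. RefSeq windows of mouse assembly GRCm38.p6, 250 bases before to 50 bases after the annotated start, were given for 42 of the 51 genes (47 windows). The motif was present in 17 of the 47 windows, 36.2%, against 2.27% of all 32851 windows and 3.995% of the 12392 windows of genes tested here. The CCAAT box (CCAAT) was found in 55.3% of the 47 windows and 37.4% of all windows. The CHR motif (TTTGAA), a motif known from late cell cycle genes, was found in 8.51% of the 47 windows and 17.9% of all windows. A match describes the letters of the window and is neither a bound site nor a cause. Of the 23 E2F matches, 13 lay before the start and 4 overlapped another match. A set of 3 stretches with a match upstream of the start is printed here on the strand of the gene, with the E2F letters in capitals, because it shows 1 match, an overlapping pair, and a pair with a further match. The stretches come from Uhrf1 (chr17:56304108-56304187, plus strand), which maintains DNA methylation behind the fork, and from the MCM helicase subunits Mcm5 (chr8:75109336-75109415, plus strand) and Mcm6 (chr1:128359745-128359835, minus strand).
Uhrf1: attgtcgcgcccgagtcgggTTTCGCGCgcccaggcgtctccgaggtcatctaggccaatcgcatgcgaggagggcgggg
Mcm5: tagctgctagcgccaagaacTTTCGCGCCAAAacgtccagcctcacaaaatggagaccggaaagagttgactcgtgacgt
Mcm6: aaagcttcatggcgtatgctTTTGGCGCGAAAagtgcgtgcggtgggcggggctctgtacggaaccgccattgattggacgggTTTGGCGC

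Whether a match went with a difference in level was not tested. Of the genes that passed a test against other cells below, Pcna, Cdc45, Prim1, Rrm2, Chaf1b and Ccne1 had no match. Tipin had no window, and the match of Uhrf1 lay upstream. In 4 further genes that passed, a match lay just after the annotated start, and Mcm3 held another that is not printed. These sites, 24 bases each on the strand of the gene with the E2F letters in capitals, belong to the helicase subunit Mcm3 (chr1:20820278-20820301, minus strand), the DNA ligase of the lagging strand Lig1 (chr7:13278844-13278867, plus strand), the checkpoint adaptor Clspn (chr4:126556993-126557016, plus strand) and the licensing factor Cdt1 (chr8:122568039-122568062, plus strand).
Mcm3: cttccgtgGCGGGAAAacttggga
Lig1: caaagtgcGCGCGAAAtctgtgtg
Clspn: gcgtctggGCGCGAAAgctcgaac
Cdt1: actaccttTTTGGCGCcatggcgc

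**Figure D1:**
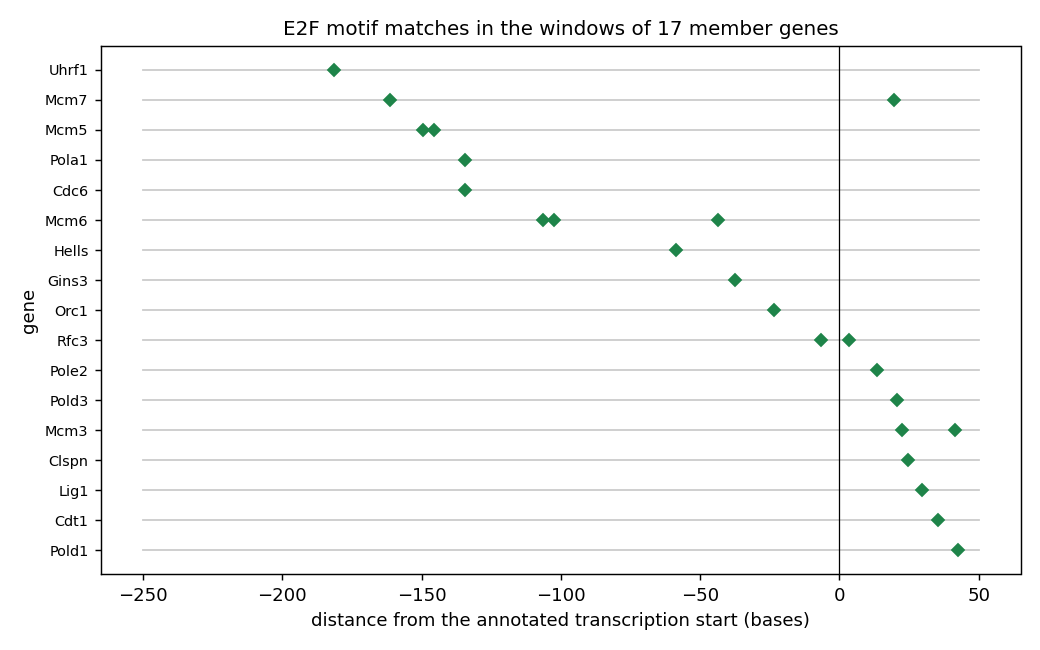
Positions of the E2F motif in the 17 member genes with a match. The horizontal axis is the distance of the motif's centre from the annotated transcription start in bases, grey lines span the 300-base window, and diamonds mark the 23 matches, which lie from far upstream in Uhrf1 to the last bases of the window in Pold1.

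The plates held 743 wells with 550468681 reads, and 621 cells with at least 1500 detected genes were kept (287 on plate 1 and 334 on plate 2). Cycling cells made up 53 and 57 of them, promyelinating cells 59 and 60, and other cells 175 and 217. Median depth was 805902 reads in cycling, 875315 in promyelinating and 892663 in other cells, with 3470, 3606 and 2810 genes detected. Few cells lay near the thresholds, with 5 other cells between 25 and 50 CPM and 4 cycling cells between 50 and 100 CPM of Mki67 and Top2a. As a check of the cycling label, 25 mitosis genes summed to 11645 and 10495 CPM in cycling cells, 299 and 304 CPM in other cells and 80.4 and 90.6 CPM in promyelinating cells. Sox10, a transcription factor that marks the SC lineage, was at 163 and 150 CPM in cycling, 205 and 198 CPM in other and 228 and 216 CPM in promyelinating cells. Of the listed markers of other cells of the nerve, Pdgfra, Ptprc, Tyrobp, Cdh5, Kdr, Acta2 and Rgs5 had 0 reads in all 3 classes, and the rest had reads. The fibroblast-like marker Dcn was at 26.6 and 19.01 CPM in promyelinating cells, with a read in 10.9% of them. In other cells the mural gene Pdgfrb averaged 29.2 CPM and the immune gene Csf1r 16.6 CPM. Summed marker lists of endothelial cells stayed at or below 2.92 CPM, of immune cells at or below 20.7 CPM and of mural cells between 24.9 and 56.8 CPM, with the mural gene Pdgfrb called lower in cycling than in other cells and no other endothelial, immune or mural marker called in that comparison. Col1a1, a collagen gene on the list of fibroblast-like markers, averaged 1021 CPM in cycling, 961 in other and 553 in promyelinating cells, and its part in the results was not tested.

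Taken as 1 summed level, the 51 genes reached 4999 and 4611 CPM in cycling cells, 1291 and 1259 CPM in other cells and 728 and 741 CPM in promyelinating cells on plates 1 and 2. The 3 classes did not overlap in this sum. A higher level in summed cells can come from more cells with the transcript or from more reads per cell, so shares of cells with a read are given beside it. The cells were assigned to classes by 2 cell cycle genes measured in the same cells, so the classes are not independent of the cycle that the 51 genes take part in.

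Cycling against other cells tested which replication genes differ in level once cells are divided by Mki67 and Top2a. Every one of the 51 fitted log2 fold changes was positive, with a median of 2.30 against -0.07 over all 13292 genes, but without the cycling sum of plate 1 those of Orc1, Pola1 and Pold3 were -0.92, -0.81 and -1.30. By the quasi-likelihood test of edgeR, with p adjusted by the Benjamini-Hochberg method, 7 of 51 genes were higher in cycling cells, against 0.895% of all genes, and 0 were lower, against 0.113%. At an unadjusted p under 0.05, 29 of the 51 were higher, against 5.23% of all genes, and 0 lower, against 4.85%. With DESeq2 on the same sums, 23 were called higher, against 3.39% of all genes, and 0 lower, against 2.60%, and without 1 of the cycling or other sums edgeR called 2 to 4. A ratio of at least 2-fold on both plates was reached by 33 of 51 against 6.04% of all genes. The 7 genes were Pcna, Tipin, Clspn, Lig1, Mcm3, Cdc45 and Prim1, and Pcna and Tipin passed under all 16 alternative settings.

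**Figure D2:**
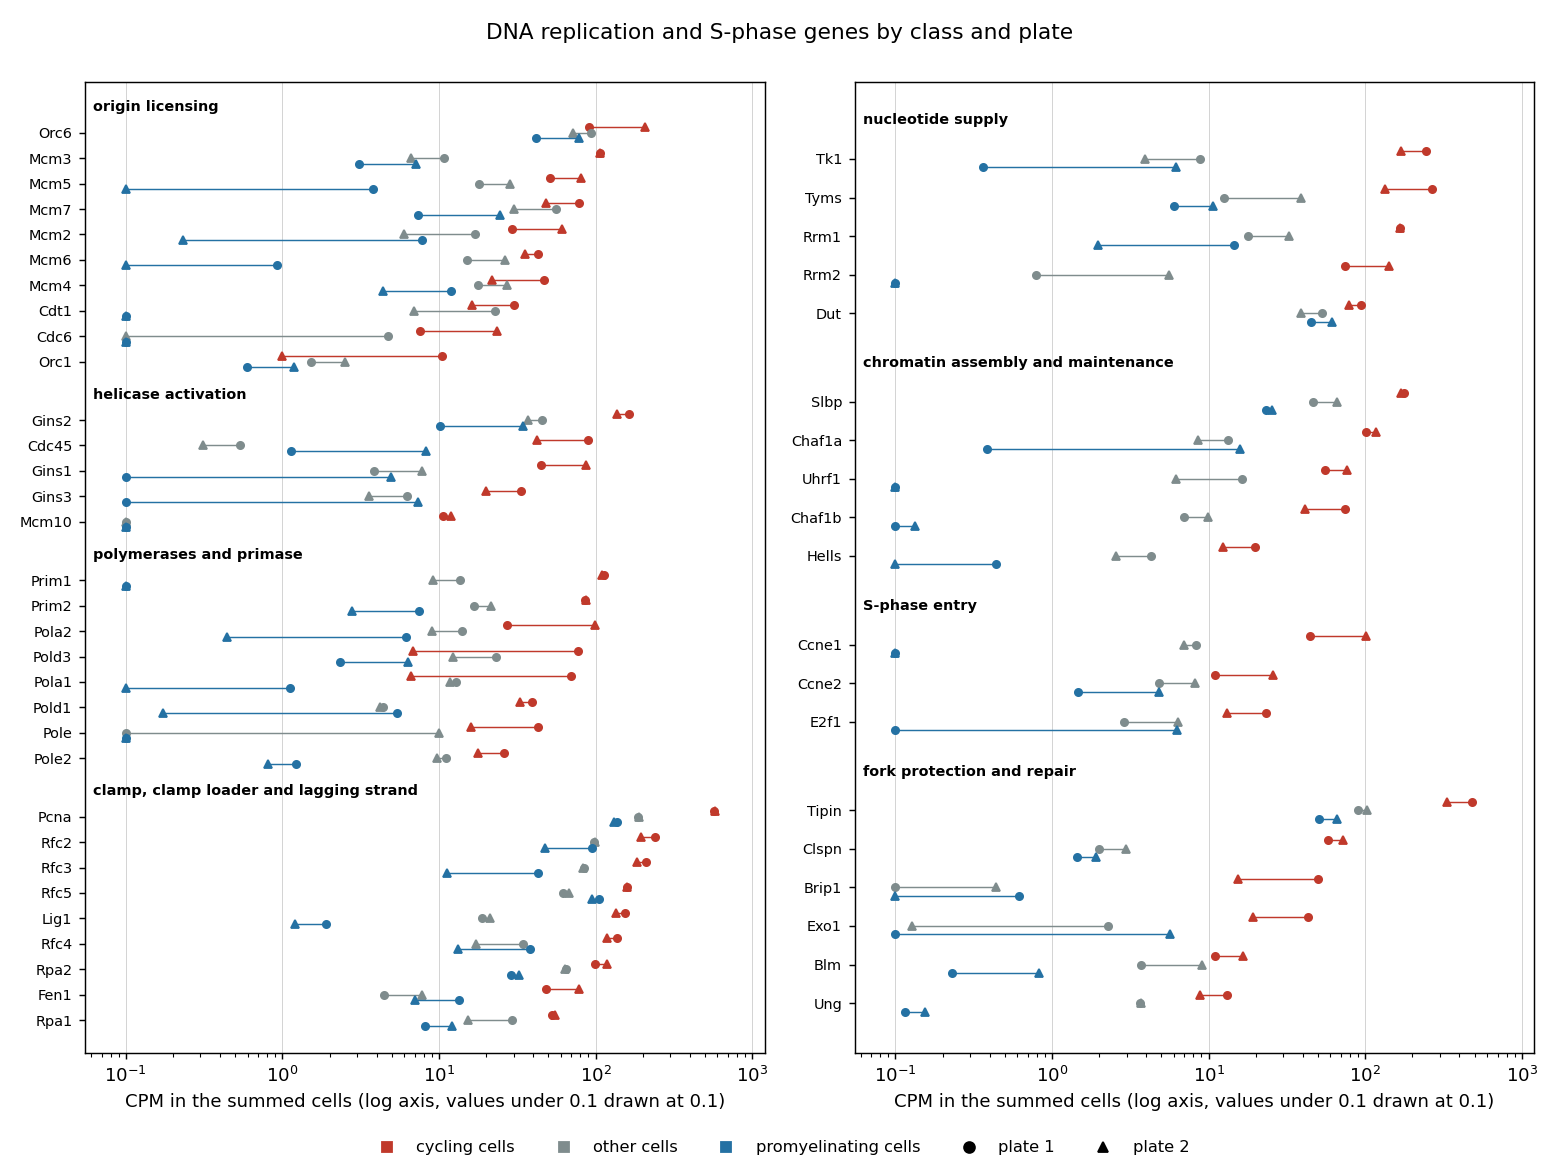
Level of each of the 51 genes in the summed cells of a class and plate, grouped by role. The horizontal axis is CPM on a log scale (values under 0.1 drawn at 0.1), colours give the class, circles plate 1 and triangles plate 2, and the line joins the plates. Cycling cells lie to the right for most genes, while Orc1, Orc6, Cdt1, Mcm4, Mcm7, Pola1 and Pold3 overlap with other cells.

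Origin licensing opens the sequence, and its genes had the lowest median of the 8 roles. The origin recognition complex (Orc1, Orc6), the loaders Cdc6 and Cdt1 and the 6 MCM subunits had a median log2 fold change of 1.34, and 1 of 10 was called. The clamp, clamp loader and lagging strand genes had a median of 1.42, and the order of the roles was not tested. Mcm3 measured 106 and 107 CPM in cycling cells and 10.7 and 6.67 CPM in other cells, with a read in 27.3% and 6.63% of cells, and rose by 3.74 on the log2 scale (SE 0.61, edgeR adjusted p = 0.0311). Its 5 partner subunits of the same ring did not pass. Mcm7 had 78.6 and 48.6 CPM in cycling cells against 55.7 and 30.0 CPM in other cells, and Mcm4 had 46.9 and 21.8 CPM against 17.7 and 27.4 CPM, so the plates overlapped. Mcm2, Mcm5 and Mcm6 had log2 fold changes of 2.08, 1.62 and 1.06, with SEs of 1.33, 1.49 and 1.33. Orc6 was among the most abundant in other cells, at 93.9 and 72.2 CPM against 91.4 and 205 CPM in cycling cells, and overlapped too. Cdt1, which brings the helicase to origins, was at 30.1 and 16.2 CPM in cycling and 22.9 and 6.88 CPM in other cells.

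Helicase activation had the highest median of the 8 roles, a log2 fold change of 3.62 beside 3.525 in fork protection and repair, with 1 of 5 genes called. Cdc45, the subunit that converts the loaded MCM ring into a moving helicase, was at 89.0 and 42.2 CPM in cycling cells and at 0.538 and 0.312 CPM in other cells. It was detected in 19.1% of cycling and 1.53% of other cells and rose by 7.40 (SE 1.22, edgeR adjusted p = 0.0315). Mcm10 had 10.6 and 12 CPM in cycling cells and 0 and 0.0231 CPM in other cells, and did not pass (adjusted p = 0.247 by edgeR). Reads for Mcm10 came from few cells, since 61.5% of them lay in 3 of the cycling cells. The GINS subunits Gins1, Gins2 and Gins3 were at least 2-fold higher on both plates without passing, with Gins2 at 164 and 137 CPM against 45.5 and 36.8 CPM.

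Among polymerases and primase, the small primase subunit Prim1, which makes the RNA primers, was the 1 of 8 genes called. It measured 114 and 110 CPM in cycling and 13.6 and 9.22 CPM in other cells, was seen in 42.7% and 5.36% of cells, and rose by 3.43 (SE 0.53, edgeR adjusted p = 0.0337). Its partner Prim2, at 85.0 and 86.6 CPM against 16.7 and 21.5 CPM, did not pass (edgeR adjusted p = 0.197). Both genes were at least 2-fold higher in cycling cells on both plates, against 6.04% of all genes. The catalytic subunit Pola1 had 69.9 CPM in cycling cells of plate 1 and 6.59 CPM on plate 2, where other cells had 11.8 CPM. Pold3 changed sides between plates in the same way, at 77.0 and 6.83 CPM against 23.3 and 12.4 CPM, and Pole had 43.0 and 16.02 CPM against 0 and 10.01 CPM. In each of these 3 genes, most of the cycling reads lay in 3 cells, 63.7% for Pola1, 58.7% for Pold3 and 66.9% for Pole.

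The clamp, clamp loader and lagging strand genes included Pcna, the member with the highest CPM in every class. Pcna, the clamp, reached 573 and 576 CPM in cycling cells, 188 and 188 CPM in other cells and 138 and 132 CPM in promyelinating cells, and the 3 classes did not overlap. It rose by 1.74 from other to cycling cells (SE 0.20, edgeR adjusted p = 0.00532), with reads in 69.1% and 40.8% of cells. Pcna has 2 named pseudogenes, Pcna-ps1 and Pcna-ps2, so reads shared with a copy are uncertain. Lig1, which joins the lagging-strand fragments, stood at 155 and 136 CPM in cycling and 18.9 and 21.1 CPM in other cells and rose by 2.999 (SE 0.44, edgeR adjusted p = 0.0178). All 9 genes of this role had an unadjusted p under 0.05, and 2 of 9 passed after adjustment. Among those that did not were the clamp loader subunits Rfc2 (240 and 196 CPM against 97.2 and 98.9 CPM), Rfc3 (209 and 184 CPM against 84.8 and 82.6 CPM) and Rfc5 (158 and 160 CPM against 61.99 and 67.9 CPM). The flap nuclease Fen1 had the widest ratio of the uncalled genes here, at 48.4 and 78.6 CPM against 4.43 and 7.80 CPM (edgeR adjusted p = 0.0724). The single-strand binding genes Rpa1 and Rpa2 had log2 fold changes of 1.41 and 0.89.

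Nucleotide supply had no call in the main edgeR fit. Rrm2 passed edgeR with a block for the plate, without a filter, after thinning and with cells of at least 2500 genes. DESeq2 called Rrm1, Rrm2, Tyms and Tk1 higher. Rrm1 and Rrm2 are the subunits of ribonucleotide reductase. Rrm1 was at 166 CPM on both plates in cycling cells and at 17.9 and 32.9 CPM in other cells, with a read in 60.9% and 11.99% of cells. Rrm2 was at 74.7 and 143 CPM against 0.788 and 5.60 CPM (edgeR adjusted p = 0.0782, and 0.0497 with the plate as a block). The thymidine genes Tyms, at 268 and 133 CPM against 12.6 and 39.0 CPM, and Tk1, at 243 and 169 CPM against 8.77 and 3.95 CPM, had adjusted p of 0.0831 and 0.108 by edgeR. Dut, which removes dUTP, differed by 1.05 (SE 0.40) and its promyelinating level lay beside that of other cells. Between cycling and other cells the 5 genes had an unadjusted p under 0.05 by edgeR, against 5.23% of all genes higher. Rrm1, Rrm2, Tyms and Tk1 were at least 2-fold higher in cycling than in other cells on both plates, against 6.04% of all genes. Dut was below that ratio on plate 1. Between promyelinating and other cells, the levels of Dut and Tk1 overlapped.

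Fork protection gave the other called pair. Tipin, part of the complex that travels with the fork, was at 481 and 333 CPM in cycling and 89.8 and 102 CPM in other cells, and rose by 2.22 (SE 0.29, edgeR adjusted p = 0.00976). It was read in 64.5% of cycling and 27.3% of other cells. Clspn, which passes the checkpoint signal to the kinase CHK1, was at 57.6 and 72.4 CPM against 2.01 and 2.95 CPM and rose by 4.84 (SE 0.70, edgeR adjusted p = 0.0156). The repair genes Exo1, Brip1, Blm and Ung had lower levels, from 8.85 to 49.7 CPM in cycling cells, and SEs from 1.26 to 2.62, and none was called.

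Chromatin assembly genes were separated on both plates and not called in the main edgeR fit. Slbp, which binds histone mRNA, had 178 and 170 CPM against 46.4 and 65.6 CPM, a difference of 1.77 on the log2 scale (SE 0.34) with an edgeR adjusted p of 0.0641. Chaf1a and Chaf1b, subunits of the assembly factor that deposits histones on new DNA, were at 101 and 117 CPM against 13.3 and 8.50 CPM, and at 74.7 and 41.5 CPM against 6.98 and 9.98 CPM. Uhrf1 had 55.1 and 77.0 CPM against 16.3 and 6.21 CPM, and the helicase Hells 19.7 and 12.3 CPM against 4.28 and 2.57 CPM. Of the S-phase entry genes, cyclin E1 (Ccne1) was at 44.5 and 101 CPM against 8.31 and 6.92 CPM (edgeR adjusted p = 0.116), cyclin E2 (Ccne2) at 11.1 and 25.9 CPM against 4.83 and 8.13 CPM, and E2f1 at 23.3 and 13.1 CPM against 2.87 and 6.33 CPM. The 8 genes were all at least 2-fold higher on both plates, against 6.04% of all genes.

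**Figure D3:**
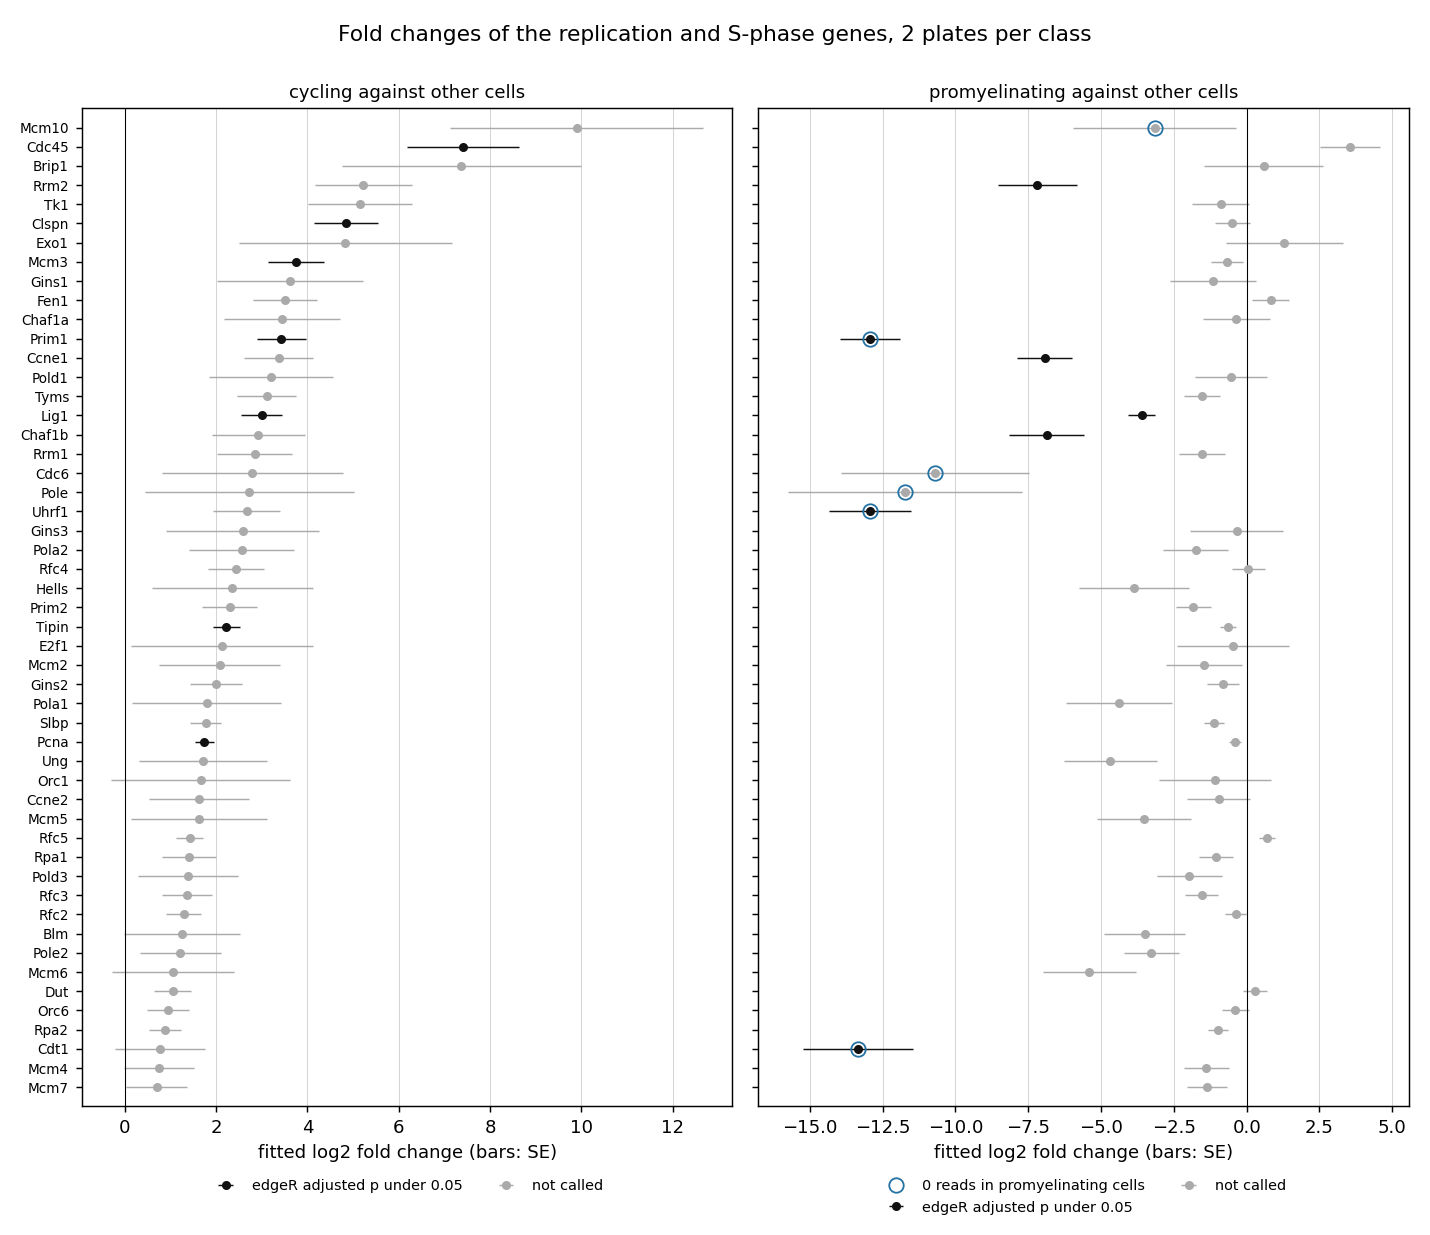
Fitted log2 fold change of each gene with its SE, cycling against other cells on the left and promyelinating against other cells on the right, from 6 sums (2 plates by 3 classes). Black points passed an edgeR adjusted p of 0.05 and blue rings mark the 6 genes with 0 reads in promyelinating cells, for which the fitted value is no measure of size. All points lie right of 0 on the left, and 44 of 51 lie left of 0 on the right.

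Promyelinating against other cells asked whether replication transcripts differ again among cells below the threshold of Mki67 and Top2a. The fitted log2 fold change was negative for 44 of 51 genes, with a median of -1.36 (-1.16 with genes at 0 reads set to their bound) against -0.07 over all genes. By edgeR, 7 of 51 were lower in promyelinating cells, against 1.29% of all genes, and 0 were higher, against 0.497%. DESeq2 called 15 lower, against 5.05% of all genes, and 1 higher, against 2.54%. A ratio of at least 2-fold lower on both plates was seen in 21 of 51, against 15.1% of all genes. Promyelinating cells had more genes detected than other cells, with the medians given above. Among 8 genes of the dissociation response, Atf3, Egr1, Fos and Ier2 were lower in promyelinating cells as well, and the list summed to 2205 and 2418 CPM there against 5842 and 6380 CPM in other cells, with its part in the result not tested.

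Of the 51 genes, 6 had no read at all in the 119 promyelinating cells, which together held 104206639 reads. Neither had 10 of the 25 mitosis genes, 4 of 50 other replication and repair genes and 3 of 30 regulators of S-phase entry. The share over all genes is not given, so an absence particular to the 51 cannot be read from this count. Of the 6 among the 51, Prim1 (13.6 and 9.22 CPM in other cells), Uhrf1 (16.3 and 6.21 CPM) and Cdt1 (22.9 and 6.88 CPM) passed, with edgeR adjusted p of 0.00119, 0.00546 and 0.0159. With the floor set at 3 reads over the class, Prim1 was at least 393-fold lower, Uhrf1 at least 384-fold lower and Cdt1 at least 505-fold lower. Reads within a cell are not independent, so these bounds count reads and do not hold for cells. A read was found in 5.36% of other cells for Prim1 and Cdt1 and 5.10% for Uhrf1, against 0 of 119 promyelinating cells. The other 3, Cdc6, Pole and Mcm10, did not pass and had 4.70 and 0.0694 CPM, 0 and 10.01 CPM, and 0 and 0.0231 CPM in other cells. In other cells the reads of these 6 genes came from 2 cells for Mcm10 up to 21 cells each for Prim1 and Cdt1.

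The remaining called genes were Lig1, Ccne1, Chaf1b and Rrm2. Lig1 was at 1.90 and 1.21 CPM in promyelinating and 18.9 and 21.1 CPM in other cells, and fell by 3.60 (SE 0.46, edgeR adjusted p = 0.00660). It was called both between cycling and other and between other and promyelinating cells, as was Prim1. These comparisons share the sums of the other cells. Ccne1 was at 0.0192 and 0.0960 CPM against 8.31 and 6.92 CPM and fell by 6.94 (SE 0.95, edgeR adjusted p = 0.00933). Chaf1b was at 0 and 0.134 CPM against 6.98 and 9.98 CPM and fell by 6.87 (SE 1.28, edgeR adjusted p = 0.0371). Rrm2 had 2 reads on plate 1 and none on plate 2, a ratio of 171 between other and promyelinating cells with a counting interval from 47.3 to 1416 (edgeR adjusted p = 0.0387). That interval counts reads, and by cells Rrm2 was read in 4.85% of other and 0.840% of promyelinating cells. In other cells 83.8% of the Ccne1 reads, 74.0% of the Chaf1b reads and 78.2% of the Rrm2 reads lay in 3 cells.

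Not every gene was low in promyelinating cells. Rfc5 had 105 and 94.9 CPM there against 61.99 and 67.9 CPM in other cells, with a read in 67.2% and 37.8% of cells, and did not pass (difference 0.70 on the log2 scale, SE 0.29, edgeR adjusted p = 0.411). Pcna kept reads in 52.9% of promyelinating cells. Dut was at 45.0 and 61.4 CPM against 53.0 and 38.8 CPM, and overlapped, with a fitted difference of 0.29 that was below 0 under 3 alternatives. Cdc45 was the 1 gene at least 2-fold higher on both plates, against 5.36% of all genes, at 1.13 and 8.30 CPM against 0.538 and 0.312 CPM, from 2 promyelinating cells and 6 other cells.

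Cycling against promyelinating cells gave the widest difference. All 51 log2 fold changes were positive with a median of 4.13, and 21 of 51 were called higher by edgeR against 3.83% of all genes, with 0 lower against 2.12%. DESeq2 called 42 higher, against 9.67% of all genes, and 0 lower, against 7.46%. A ratio of at least 2-fold on both plates was reached by 46 of 51, against 13.6% of all genes. The called genes were spread over every role, with 5 of 9 in the clamp, clamp loader and lagging strand role, 4 of 5 in nucleotide supply and 2 of 10 in origin licensing. Rrm2 had a ratio of 5621 with a counting interval from 1556 to 46422, and Prim1 was at least 3896-fold higher in cycling cells. These values count reads and do not hold for cells. By cells, Rrm2 was read in 53.6% of cycling and 0.840% of promyelinating cells, and Prim1 in 42.7% and 0%.

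Levels between genes were compared per kilobase of exon. On that scale Pcna led in cycling cells with 239 CPM per kb, followed by Tipin with 218 and Rfc4 with 83.3 CPM per kb. Mcm7, Pole2 and Rpa1 overlap exons of another gene on the same strand, and 15 of the 51 overlap an exon on the opposite strand, among them Cdc45, Lig1, Rfc2, Rfc4, Rfc5, Tk1 and Slbp. The counting is not stated to use strand, so those reads cannot be told apart from their neighbour's.

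Genes outside the 51 gave the surroundings. Of 50 other replication and repair genes, 4 were higher in cycling than in other cells and 0 lower. They were the cohesin acetyltransferase Esco2, at 74.8 and 51.1 CPM against 0.00626 and 0 CPM, the chromatin ATPase Atad2, the histone chaperone Dnajc9 and Gmnn, which blocks Cdt1. Gmnn was at 179 and 142 CPM in cycling, 23.1 and 24.3 CPM in other and 0.0384 and 0 CPM in promyelinating cells, and it and Dnajc9 were also lower in promyelinating than in other cells. Of 29 tested regulators of S-phase entry, Ccna2 and Cks1b were higher and Ccnd2 and Cdkn1c lower in cycling than in other cells. Cyclin D2 (Ccnd2) was at 127 and 202 CPM in cycling and 726 and 576 CPM in other cells and fell by 1.86 (SE 0.31, edgeR adjusted p = 0.0333). The kinase inhibitor Cdkn1a (p21) rose by 2.20 in promyelinating cells (SE 0.19, edgeR adjusted p = 0.000986), from 361 and 431 CPM to 1622 and 1813 CPM, and Cdk6 fell by 1.36 (SE 0.16, adjusted p = 0.00480). Of the 25 mitosis genes, 17 were higher in cycling cells and 8 lower in promyelinating cells than in other cells.

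Cells below the Mki67 and Top2a threshold were then searched for replication transcripts. The number of members at 10 CPM or more was counted in each cell. In cycling cells the median was 12 on plate 1 (quartiles 6 and 22) and 14 on plate 2 (quartiles 6 and 23), while promyelinating cells had medians of 4 and 3 and other cells 3 and 3. A cell at or above the median of the cycling cells of its plate was called S-phase-high, as were 29 of 53 and 29 of 57 cycling cells by this construction. No promyelinating cell reached it, 0 of 59 and 0 of 60, where 3 cells of the total would be 5.08% and 5.0% and the exact 95% upper limits are 6.06% and 5.96%. Among other cells, 11 of 175 (6.29%, exact 95% interval 3.18 to 10.97%) and 11 of 217 (5.07%, 2.56 to 8.89%) did, a mean of 5.68% ± 0.86 (SD, n = 2 plates). Both shares depend on the threshold. With the lower quartile of the cycling cells, 6 members, 35 of 175 and 48 of 217 other cells and 13 of 59 and 9 of 60 promyelinating cells were at or above it. The 22 other cells at or above the median of the cycling cells were 27.5% of the 80 S-phase-high cells. On plate 1 the nearest other cells had 10 members below the threshold of 12 and 13 above it, with 2 cells at each value. On plate 2, with a threshold of 14, 3 cells had 13 members and 3 had 15.

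**Figure D4:**
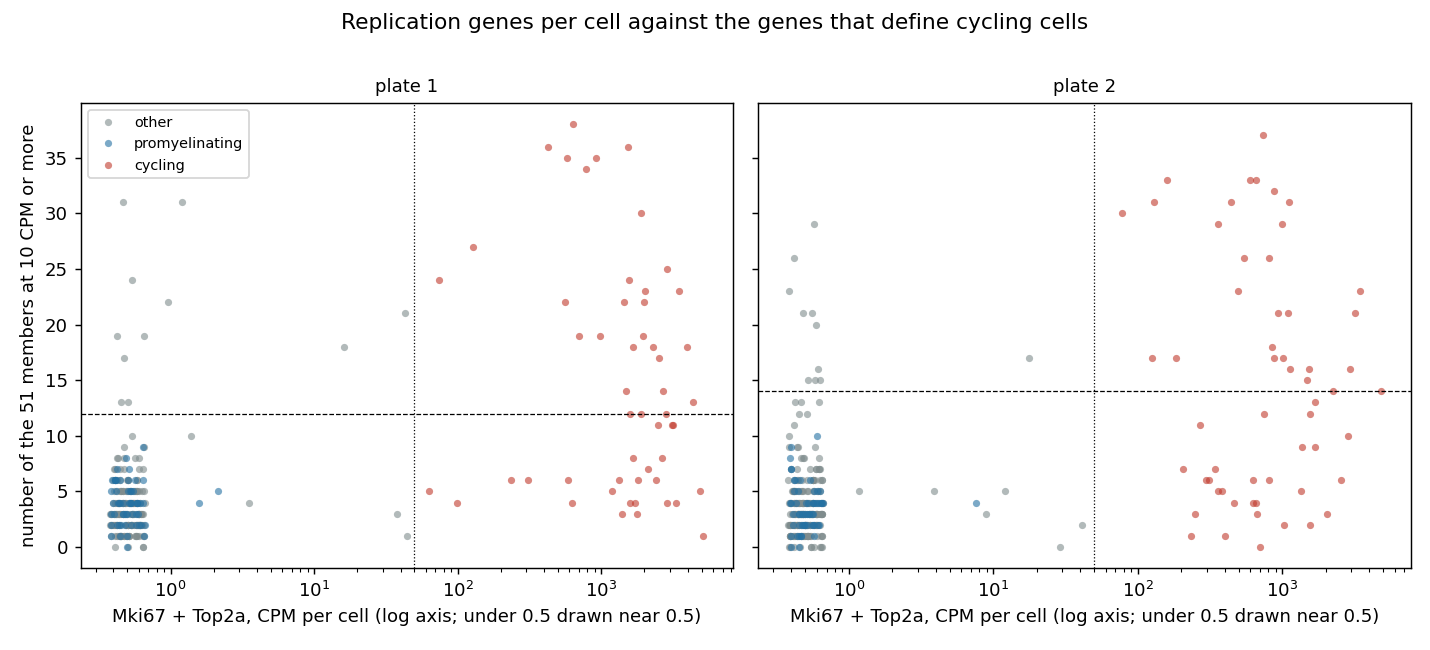
Number of the 51 genes at 10 CPM or more in each of the 621 cells (vertical axis) against Mki67 + Top2a in CPM on a log axis (values under 0.5 drawn near 0.5), per plate. The dotted line is the 50 CPM class threshold, and the dashed line is the S-phase-high threshold of 12 members on plate 1 and 14 on plate 2. Grey points above the dashed line and left of the dotted line are the 22 S-phase-high other cells, and no promyelinating cell lies above the dashed line.

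None of the 22 cells had a read of Mki67, and 17 had no read of Top2a either. Top2a was read in 5 of the 22 and in 5 of the 370 remaining other cells. Among all other cells, 386 had no Mki67 read and 6 had at least 1. The cells held 13 to 31 members, with medians of 19 and 20, and their member CPM ran from 1675 to 13747 with a median of 5819, against a median of 7585 CPM in the 58 S-phase-high cycling cells. Their 25 mitosis genes summed to a median of 174 CPM on plate 1 and 168 CPM on plate 2, against 9625 and 8864 CPM in the S-phase-high cycling cells. In the remaining other cells these medians were lower, at 0 and 22.8 CPM, with maxima of 9383 and 13276 CPM. Among the 22, a single cell on plate 2 stood apart at 5568 CPM of mitosis genes with 1399 CPM of Cdk1 and no Mki67 or Top2a read. The 22 cells had a median of 799743 reads and 3355 genes, against 895011 reads and 2769 genes in the other cells below the threshold. The 2 shallowest, with 43565 and 46900 reads, had 21 and 29 members. Of the S-phase-high cycling cells, 4 of 58 lacked Mki67 reads and were placed by Top2a.

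The 22 cells were chosen by their number of members, so a larger share of member reads than of cells is built into that choice. On plate 1 the 11 cells held 29.8% of all member reads of the other cells, and on plate 2 the 11 cells held 17.1%. For 16 members on plate 1 and 7 on plate 2, over 50% of the reads of other cells came from them, with Mcm2, Tk1, Cdc6 and Ccne1 on both plates. The summed level was 6508 and 6101 CPM in these cells and 963 and 1081 CPM in the remaining other cells. In cycling cells the S-phase-high cells, chosen in the same way, held 85.9% and 81.6% of member reads. Their level was 7922 and 7818 CPM, against 1538 and 1638 CPM in the remaining cycling cells.

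Because the members chose these cells, their values are a description with no test. Each of the 51 genes had a read in at least 1 of the 22 cells. Pcna was at 791 and 1323 CPM there and 910 and 1018 CPM in S-phase-high cycling cells, and Tipin at 605 and 497 CPM against 697 and 586 CPM. These levels overlapped between the groups for both Pcna and Tipin. Of the 10 licensing genes, 4 were higher in the 22 cells on both plates (Mcm4, Mcm5, Mcm6 and Mcm7), 2 were lower on both (Mcm3 and Orc1) and 4 changed sides. Mcm6 was at 94.9 and 250 CPM against 79.1 and 40.2 CPM, and Mcm4 at 118 and 156 CPM against 65.7 and 36.3 CPM. Mcm3 was at 149 and 32.6 CPM against 162 and 222 CPM. Cdt1, at 184 and 11.6 CPM against 55.6 and 33.7 CPM, was higher on plate 1 and lower on plate 2. Over all 51, 5 genes were higher on both plates, 25 lower on both, and 21 changed sides. No share over all genes is given for these counts by direction, so they describe the 51 genes only. Mcm10, Tk1, Cdc45, Pold3, Rfc5, Clspn, Exo1 and Brip1 were at least 2-fold higher in S-phase-high cycling cells on both plates. These 8 of 51 compare with 17% of all genes (2256 of 13292), a share near theirs, and the reverse was met by 0 members and 5.15% of all genes. Cdc45 was at 9.10 and 4.09 CPM against 163 and 82.3 CPM, and Mcm10 at 0 and 0.654 CPM against 19.5 and 23.9 CPM. Esco2, which is no member, had no read in the 22 cells and was at 116 and 81.5 CPM in S-phase-high cycling cells.

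**Figure D5:**
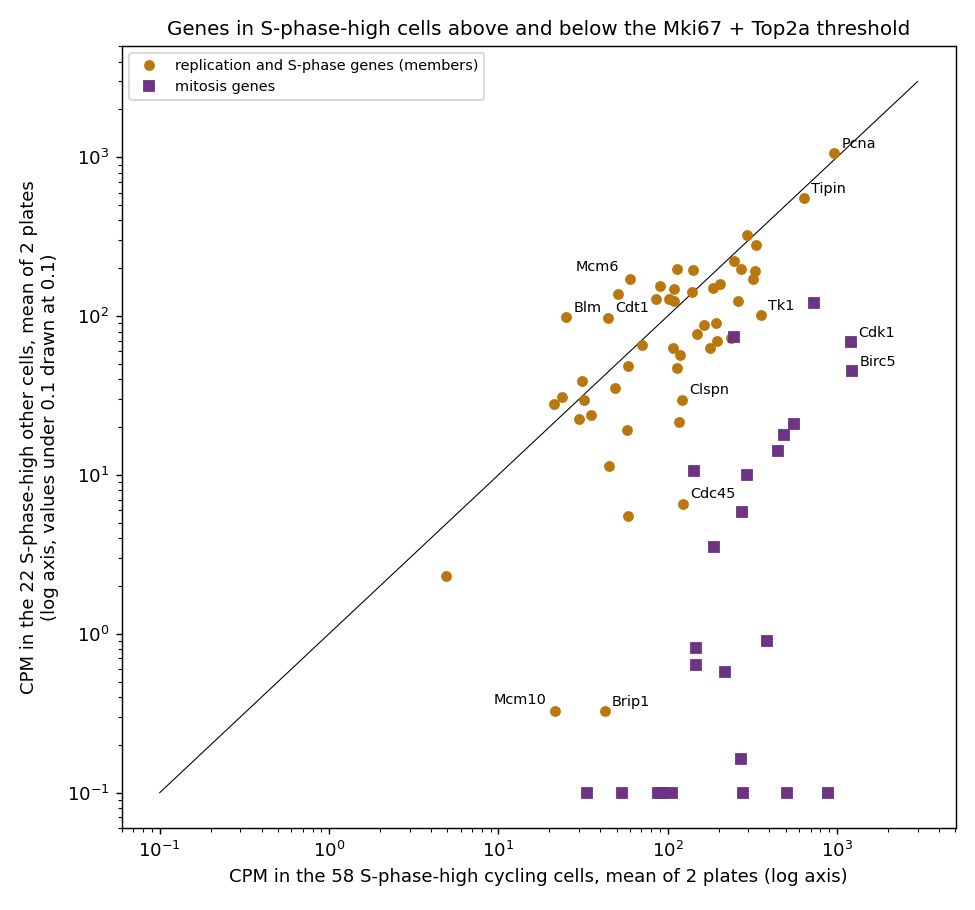
CPM of each gene in the 58 S-phase-high cycling cells (horizontal axis) and the 22 S-phase-high other cells (vertical axis), as means of 2 plates on log axes with values under 0.1 drawn at 0.1. Circles are the 51 members, squares the 25 mitosis genes, and the line marks equal levels. Pcna and Tipin lie near the line, Mcm10, Cdc45 and Brip1 lie far below it, and all mitosis genes lie below it.

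All 25 mitosis genes were at least 2-fold higher in S-phase-high cycling cells than in the 22 cells on both plates, and 9 of them (Ccnb2, Aurkb, Bub1, Bub1b, Kif11, Kif23, Ube2c, Ttk and Hmmr) had no read in the 22 cells. That ratio was met by 17% of all genes (2256 of 13292). The groups were divided by Mki67 and Top2a, cell cycle genes as well, so the mitosis difference is not independent of the class rule. Cyclin D genes stood the other way. Ccnd1 was read in all 22 cells at 1873 and 1284 CPM, against 755 and 813 CPM in S-phase-high cycling cells and 1128 and 1086 CPM in the remaining other cells. Ccnd2 was read in all 22 as well, at 1236 and 502 CPM against 224 and 251 CPM and against 694 and 579 CPM in the same groups. The kinase inhibitor Cdkn1c (p57) was at 62.3 and 3.76 CPM, with reads in 9 of the 22 cells, against 521 and 802 CPM in the remaining other cells. Endothelial markers had 0 reads, immune and mural markers had reads in 4 and 3 of the 22, and the fibroblast-like list had reads in all 22. The median of that list was 1138 CPM, against 841 CPM in S-phase-high cycling and 787 CPM in the remaining other cells, where it was likewise read in every cell. Its Col1a1 was at 1051 and 1680 CPM, against 886 and 1001 CPM in the remaining other cells, and its part in the result was not tested.

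Within cycling cells the members were spread unevenly. The count ran from 1 to 38 members per cell on plate 1 and from 0 to 37 on plate 2, and 1 cycling cell had none. Across cycling cells the number of members had a Spearman correlation with mitosis CPM of -0.38 (53 cells) and -0.15 (57 cells), and with genes per cell of 0.55 and 0.46. These points share the library of each cell and the total to which CPM is scaled, so they are a description. The 52 cycling cells below the threshold had a median of 5.5 members and 13169 CPM of mitosis genes, against 22 members and 9201 CPM in the 58 above it.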

How the data were processed

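Single eYFP-positive SCs of P1 sciatic nerve were profiled by the authors with the Smart-seq2 protocol on 2 plates. The authors deposited counts, as whole unnormalized read numbers for each gene in each well, made with STAR and featureCounts. The submitters' processing notes name STAR 2.6.1c and GRCm38.p5, and use of strand is not stated. The table held 743 wells, with 0 columns left unmapped, and 0 pairs of wells were identical. Smart-seq2 reads carry no molecular identifiers, so intervals and floors cover counting error only.

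The members and gene lists were chosen with earlier results of these data known. Symbols matched 25587 of 25700 IDs. Cells with at least 1500 genes were kept, and no doublet caller was run on the cells, which had been sorted 1 per well. CPM scale reads to 1000000 per cell or sum. Cells are not replicates, so counts were summed per plate and class and the 6 sums fitted together with edgeR 4.0.16 (TMM, filterByExpr, robust quasi-likelihood), n = 2 plates, with p-values adjusted over 13292 genes. SEs were derived from the fold change and its F statistic. The fit was tested on simulated data.

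Each plate had its own mice, so the plate number pairs the sums. Over 3713 genes, deviations of same-plate sums had correlations of 0.0977, 0.204 and 0.145 between classes. Alternatives were DESeq2 1.42.0, limma 3.58.1 on log2(mean CPM + 1), RLE size factors, no filter, the plate as a block, thinning to 50000 reads, other thresholds and leaving out each sum. Named genes are the called members, the 10 most abundant in cycling and the 5 in other cells, uncalled members at least 2-fold higher in cycling cells on both plates, and at most 3 called genes of each other list with the largest fold change. Further names were chosen after their values were seen, among them Dnajc9, Cdkn1c, Ccnd1 and the genes described in S-phase-high cells. Some marker genes of the Schwann cell list, and the sums that hold them, are not reported here.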

Additional observations from a re-analysis of the deposited data

Results flagged for a closer look

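The 122 wells with fewer than 1500 genes, which entered no comparison, held reads of the replication genes. Members made up 1008 CPM of their 20955228 reads (1221 CPM on plate 1 and 136 CPM on plate 2), above the limit of 0.143 CPM that a count of 0 allows over those wells. Of these wells, 2 had 50 CPM or more of Mki67 and Top2a, both on plate 1, and 0 reached the S-phase-high threshold.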

How the results depend on the processing

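For cycling against other cells, 7 members were called, and 23 with DESeq2, 12 with limma, 17 without a filter and 17 after thinning to 50000 reads, all of them higher. Leaving out 1 sum gave 2 to 18. It was 3 or 4 without cycling replicate 1 or 2, 2 or 4 without other replicate 1 or 2, and 16 or 18 without promyelinating replicate 1 or 2, a class that enters that comparison only through the shared spread. In those fits a lone sum is assumed to vary like the others. Without either other sum, Mcm3, Cdc45, Prim1, Lig1 and Clspn were lost. Without cycling replicate 1, Mcm3, Cdc45, Prim1 and Lig1 were lost, and without cycling replicate 2, Mcm3, Prim1 and Clspn. Cdc45 and Prim1 were also lost at class thresholds of 100 CPM, Prim1 with limma and Mcm3 with cells of at least 2500 genes. For promyelinating against other cells, 7 were called, and 16 with DESeq2, 1 of them higher. Leaving out 1 sum gave 5 to 11, and Rrm2 and Chaf1b were lost with limma and without other replicate 2, Chaf1b also at 2500 genes and without cycling replicate 1, and Rrm2 without cycling replicate 2 or either promyelinating sum, while Cdt1, Prim1, Lig1, Uhrf1 and Ccne1 passed under all 16 alternatives. For cycling against promyelinating cells, 21 were called, and 42 with DESeq2, 42 with limma, 33 without a filter, 36 after thinning and 16 to 28 leaving out 1 sum. With the plate as a replicate block the counts were 8, 7 and 21, Rrm2 was then called in cycling against other cells, and in cycling against promyelinating cells Pole2 was lost and Rfc4 called. The S-phase-high share of cells that were not cycling was 4.34%, and 20.6% with the lower quartile of the cycling cells as threshold, 6.36% by summed CPM, 5.10% after thinning, and 3.97 to 4.70% leaving out 1 plate. In cycling against other cells, the fold changes of Orc1, Pola1 and Pold3 turned negative without cycling replicate 1 and ran from -0.92 to 2.53, from -0.81 to 2.67 and from -1.30 to 2.27 over the fits leaving out 1 sum, and those of the other members kept their sign. In promyelinating against other cells, that of Dut was -0.16 with limma, -0.049 after thinning and -0.27 with cells of at least 2500 genes. Pole and Mcm10 could not be fitted there without other replicate 2, having no read in either class. Fold changes of members not named in that comparison are not covered here. The cause of these shifts was not tested. With 2 plates, a gene read in few cells has a wide error.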
